A study of Drosophila melanogaster with 6 samples.

Results

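The regions described here are the Gcn5 peaks on chromosome 4 of Drosophila melanogaster in 3 chromatin immunoprecipitation and sequencing (ChIP-seq) libraries. Every peak whose sequence name was that of chromosome 4 was taken, with no use of its score or width. This gave 214 of the 14386 peaks in the 3 lists: 53 of 5096 in Kc cells with GFP RNAi (the Kc control), 42 of 4228 in Kc cells with CP190 RNAi, and 119 of 5062 in S2 cells with GFP RNAi. Kc and S2 are cell lines that were established from Drosophila embryos. All cells had received double-stranded RNA (90 µg for every 6000000 cells) against either GFP or CP190, so the controls carried an RNAi treatment too. Chromatin was fixed with 1% formaldehyde and precipitated with a polyclonal antibody against Gcn5 raised in rabbits, 5 µg each time. The 3 matching input libraries were not analysed here, and the files used here do not measure how far CP190 was depleted.

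Gcn5 transfers acetyl groups to histones and is part of the coactivator complexes SAGA and ATAC, which act mainly at promoters and enhancers of active genes. CP190, a BTB-domain and zinc-finger protein, is found with insulator proteins and at many promoters. Chromosome 4, the dot chromosome, is unusual for a fly autosome: its genes lie among repeats and are coated by the heterochromatin protein HP1a and by POF, a protein that mainly binds this chromosome, and yet many of them are actively transcribed. It carries developmental regulators such as cubitus interruptus, eyeless, twin of eyeless and pangolin. No gene is assigned to a peak here, because the files use build dm3 and no dm3 genome or annotation was used; for the same reason no sequence is shown.

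Each group had 1 library, so no difference below has a replicate check and no p-value is given. Beside percentages, 95% binomial intervals (exact, by Clopper and Pearson) are given; they cover nothing but counting error and treat peaks as independent. Read depth is unknown, and where no peak was called, Gcn5 may still have been bound. The score of a peak is the authors' own value and was used only to rank peaks within their list, where rank 1 is the highest score. A peak is called shared where it and a peak of the other list have at least 1 bp in common. The S2 list names its sequences in another way than the Kc lists, so a difference in processing and one between the cell lines cannot be told apart.

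Most Gcn5 sites of chromosome 4 were seen in S2 cells, and most Kc sites were among them. When overlapping peaks of the 3 lists were merged, the 214 peaks formed 124 sites between positions 62595 and 1255409 of dm3. Of these, 28 sites (22.6%) held a peak in all 3 libraries, 20 (16.1%) in the Kc control and S2, and 5 (4.03%) in the CP190 RNAi library and S2. Both Kc libraries without S2 gave 3 sites, the Kc control alone 1, the CP190 RNAi library alone 3, and S2 alone 64 (51.6%). Thus 60 sites held a Kc peak and 53 of those 60 also held an S2 peak. Counted by peaks over the whole lists, 59.7% of Kc control peaks and 44.6% of CP190 RNAi peaks had an S2 peak, while 34.0% of S2 peaks lacked a peak in either Kc library. On the other major arms alone these shares were 64.3%, 48.2% and 33.4%. Among classes with more than 5 sites, those common to all 3 libraries were the widest, with a median of 2264 bp after merging. The 5 sites of the CP190 RNAi library and S2 had a larger median, 2723 bp. The medians were 1786 bp for the sites of the Kc control and S2 and 1272 bp for the sites of S2 alone. A merged site spans all of its peaks, so sites held by more libraries are wider in part by construction.

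**Figure D1:**
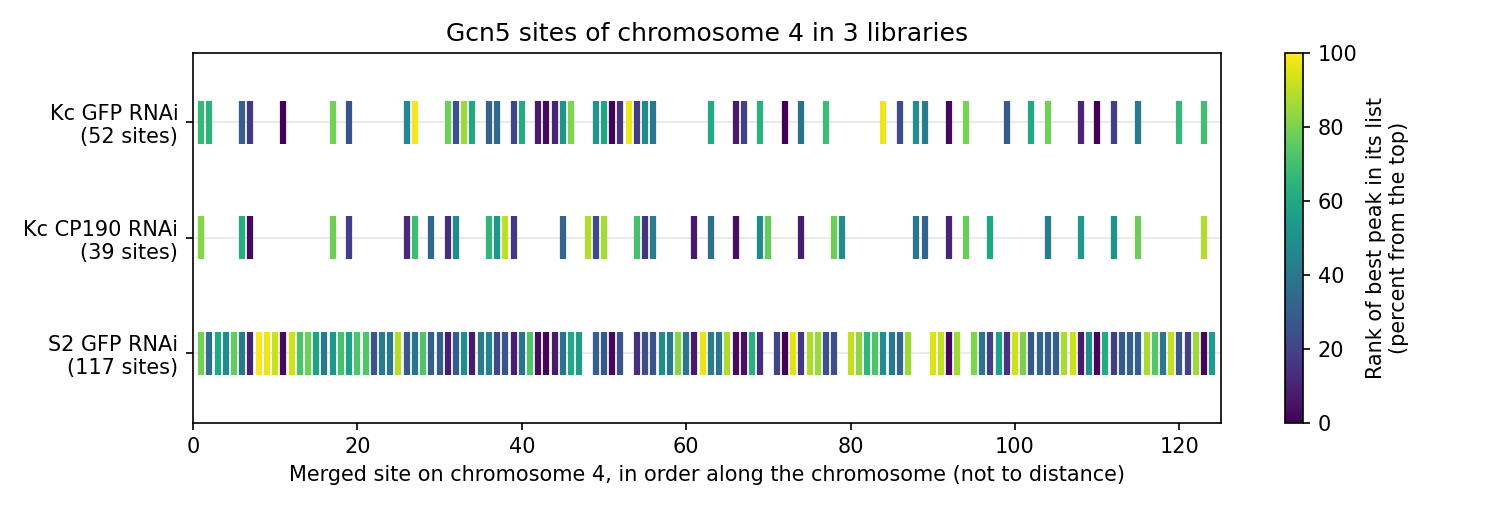
Each tick is 1 of the 124 merged sites, placed in its order along chromosome 4 and not to distance, in the library that holds a peak there; the colour gives the rank of the best peak as a percent from the top of its list, dark being strongest. The S2 row is nearly filled, with 117 sites, while the Kc control row has 52 and the CP190 RNAi row 39, and several of the darkest Kc control ticks have no tick below them in the CP190 RNAi row.

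In S2 cells chromosome 4 was far denser in Gcn5 peaks than any other major arm, whereas in Kc it was the densest arm by a small margin in the control and second to 2R after CP190 RNAi. The span of chromosome 4 between the first and the last peak of the 3 lists was 1.19 Mb. The S2 list had 99.8 peaks per Mb there, against 37.8 on X, 42.6 on 2L, 41.9 on 2R, 41.8 on 3L and 40.6 on 3R. The Kc control list had 44.4 peaks per Mb on chromosome 4 and 36.7 to 41.7 on the other arms. The CP190 RNAi list had 35.2 on chromosome 4 and 28.1 to 36.7 on the others. As a share of the list, chromosome 4 held 2.35% of S2 peaks (1.95 to 2.81%), 1.04% of Kc control peaks (0.780 to 1.36%) and 0.993% of CP190 RNAi peaks (0.717 to 1.34%). The S2 interval lies above both Kc intervals, which overlap each other.

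The length of chromosome 4 under Gcn5 peaks differed even more, because S2 peaks were also wide there. S2 peaks covered 226 kb of chromosome 4, or 18.9% of the span, and 6.16% of the other major arms. Kc control peaks covered 91.4 kb (7.66%, against 6.24% on the other arms), and CP190 RNAi peaks 66.4 kb (5.57%, against 5.21%). Together the 3 lists covered 246 kb, of which 42.7 kb lay under a peak in every library and 137 kb under an S2 peak alone. That last length was 60.7% of all S2-covered sequence on the chromosome.

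**Figure D2:**
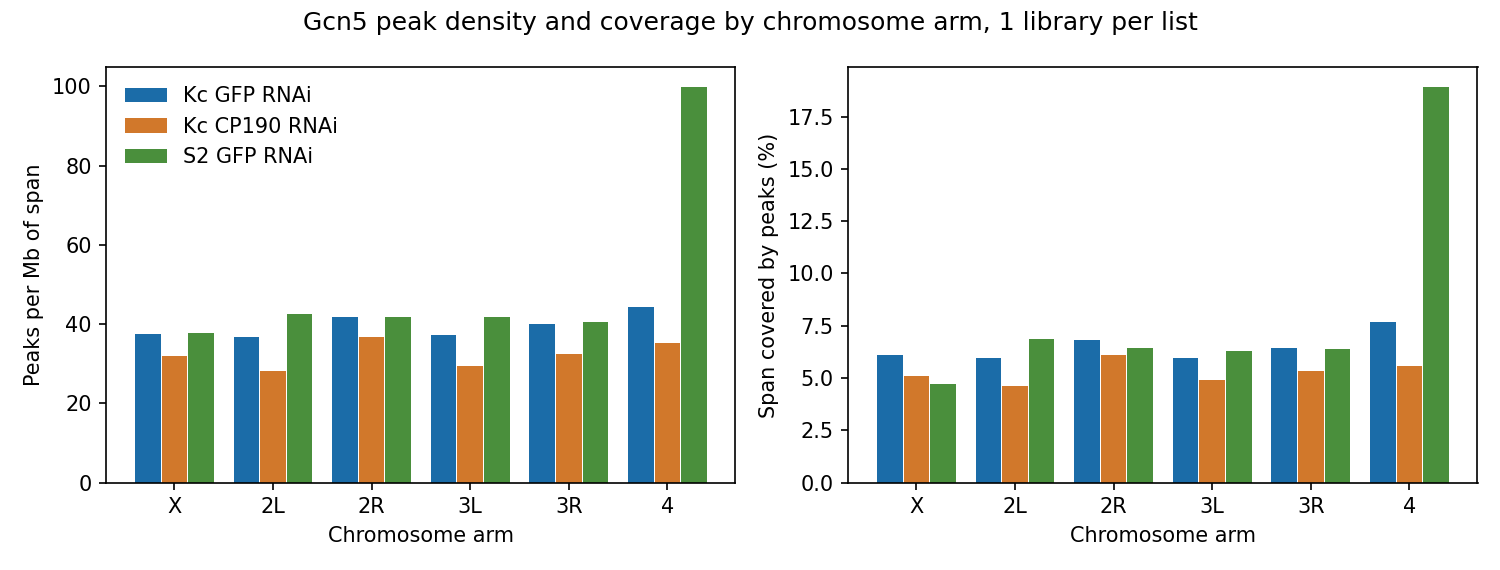
The left bars show peaks per Mb and the right bars the percent of the span covered by peaks on each major chromosome arm, for the 3 lists with 1 library each. Only the S2 bar on chromosome 4 stands apart, at 99.8 peaks per Mb and 18.9% coverage; the Kc bars there, at 44.4 and 35.2 peaks per Mb, are near those of the other arms.

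Peak widths on chromosome 4 had a median of 1523 bp in the Kc control (quartiles 1173 and 1887 bp), 1332 bp after CP190 RNAi (1041 and 1796 bp) and 1426 bp in S2 (1108 and 2156 bp). On the other major arms the medians were 1314, 1368 and 1201 bp in the same order. The median on chromosome 4 was thus larger than elsewhere in both control libraries and slightly smaller after CP190 RNAi. Peaks of 3000 bp or more made up 17 of the 119 S2 peaks (14.3%, against 6.21% on the other arms), 5 of 53 in the Kc control (9.43%, against 6.68%) and 3 of 42 after CP190 RNAi (7.14%, against 6.90%).

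The widest S2 peak, at chr4:85205-92482, spanned 7278 bp and enclosed 2 peaks of each Kc library. The next 4 were at chr4:152261-159127 (6867 bp), chr4:679278-685806 (6529 bp), chr4:947508-952431 (4924 bp) and chr4:62595-67476 (4882 bp), and each of these overlapped a Kc peak as well. Width and score did not go together among them: their ranks in the S2 list were 492, 2901, 339, 2454 and 3992. In the Kc control the widest peaks were chr4:575008-580700 (5693 bp) and chr4:333063-336800 (3738 bp), both present in all 3 libraries. They were followed by chr4:434280-437783 (3504 bp), chr4:715558-718891 (3334 bp) and chr4:1050992-1054259 (3268 bp). After CP190 RNAi the widest were chr4:576614-580765 (4152 bp), chr4:679280-682644 (3365 bp), chr4:715575-718723 (3149 bp), chr4:630129-632739 (2611 bp) and chr4:590447-592872 (2426 bp). Of these 5, only the peak at chr4:679280-682644 had no Kc control peak.

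Chromosome 4 held a few of the strongest Gcn5 peaks of both control libraries. In the Kc control its best peak had rank 5 of 5096, in S2 its best peak had rank 2 of 5062, and after CP190 RNAi its best peak had rank 95 of 4228. The highest 10% of each list included 8 of the 53 Kc control peaks (15.1%, 6.75 to 27.6%), 4 of the 42 CP190 RNAi peaks (9.52%, 2.66 to 22.6%) and 17 of the 119 S2 peaks (14.3%, 8.55 to 21.9%). On the other major arms these shares were 10.3%, 9.93% and 9.93%, which lie inside all 3 intervals. The median peak of chromosome 4 lay 41.4% from the top of the Kc control list, 48.2% from the top of the CP190 RNAi list and 39.8% from the top of the S2 list.

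The series' design asks how Gcn5 binding in Kc cells differs once CP190 is targeted. On chromosome 4, 21 of the 53 Kc control peaks were not met by any CP190 RNAi peak (39.6%, 26.5 to 54.0%), and over the whole list this was so for 42.2% of peaks. The other major arms stood at 43.0%, and at 38.7% when their peaks were given the score and width make-up of the chromosome 4 peaks. The share of missing peaks on chromosome 4 was therefore within its counting error of the rest of the genome.

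The missing peaks included strong ones. Of the 10 highest-scored Kc control peaks on chromosome 4, 7 were missing after CP190 RNAi, and of the remaining 43 peaks, 14 were. Within the highest 10% of the whole list, 6 of 8 chromosome 4 peaks were missing (interval 34.9 to 96.8%) and 42.9% of the 473 peaks on the other arms, a value inside that interval. The strongest, chr4:1133056-1134734, had a score of 1372.92 and rank 5, and the nearest CP190 RNAi peak lay 9538 bp away. In S2 the same site had a peak with a score of 2130.02 and rank 41. The second, chr4:854826-857099, had a score of 1206.67 and rank 13 in Kc, and its nearest CP190 RNAi peak was 29540 bp away. In S2 it was the strongest peak of the chromosome, with a score of 3100 and rank 2, 1 of 8 S2 peaks at exactly that score.

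The next 2 sites by score showed the same pattern of a high rank in both controls and no peak after CP190 RNAi. At chr4:506550-508123 the Kc control score was 1027.27 (rank 24) and the S2 score 1619.98 (rank 94). At chr4:109976-111188 they were 909.13 (rank 36) and 1433.57 (rank 134). The other missing peaks among the strongest 10 were chr4:434280-437783, with a Kc control rank of 138 and an S2 rank of 49, chr4:427070-428316, with ranks of 363 and 167, and chr4:444858-445984, with ranks of 528 and 348.

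Only 3 of the strongest 10 Kc control peaks were still called. The peak at chr4:999882-1001624 had rank 121 in the Kc control, rank 436 after CP190 RNAi and rank 104 in S2. The peak at chr4:715558-718891 had ranks of 352, 158 and 141 in the same order. At chr4:1104917-1106167 the ranks were 519, 2251 and 375. The kept sites thus went in both directions in rank, and ranks in lists of different length do not show a change in binding.

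The fate of Kc control peaks did not follow their score in a simple order. From the highest to the lowest score quintile of the whole list, the missing peaks of chromosome 4 were 9 of 16, 2 of 10, 1 of 9, 5 of 13 and 4 of 5. On the other major arms the missing share in those quintiles was 42.5%, 36.5%, 40.4%, 42.4% and 53.5%, which also was lowest between the extremes. The quintiles of chromosome 4 held few peaks each. In the highest quintile of chromosome 4 the missing share was 56.2% (29.9 to 80.2%). This interval includes the value of the other arms, as does the interval of every other quintile.

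Missing peaks were narrower than kept ones, with medians of 1214 bp (quartiles 1127 and 1574 bp) and 1623 bp (1255 and 1996 bp). The other major arms gave 1121 and 1541 bp. The separation was not complete, as 2 of the 5 Kc control peaks of 3000 bp or more were missing, at chr4:434280-437783 and chr4:1050992-1054259. On the other arms 15.3% of the 307 peaks of that width were missing (11.5 to 19.8%), and the interval on chromosome 4 was 5.27 to 85.3%.

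**Figure D3:**
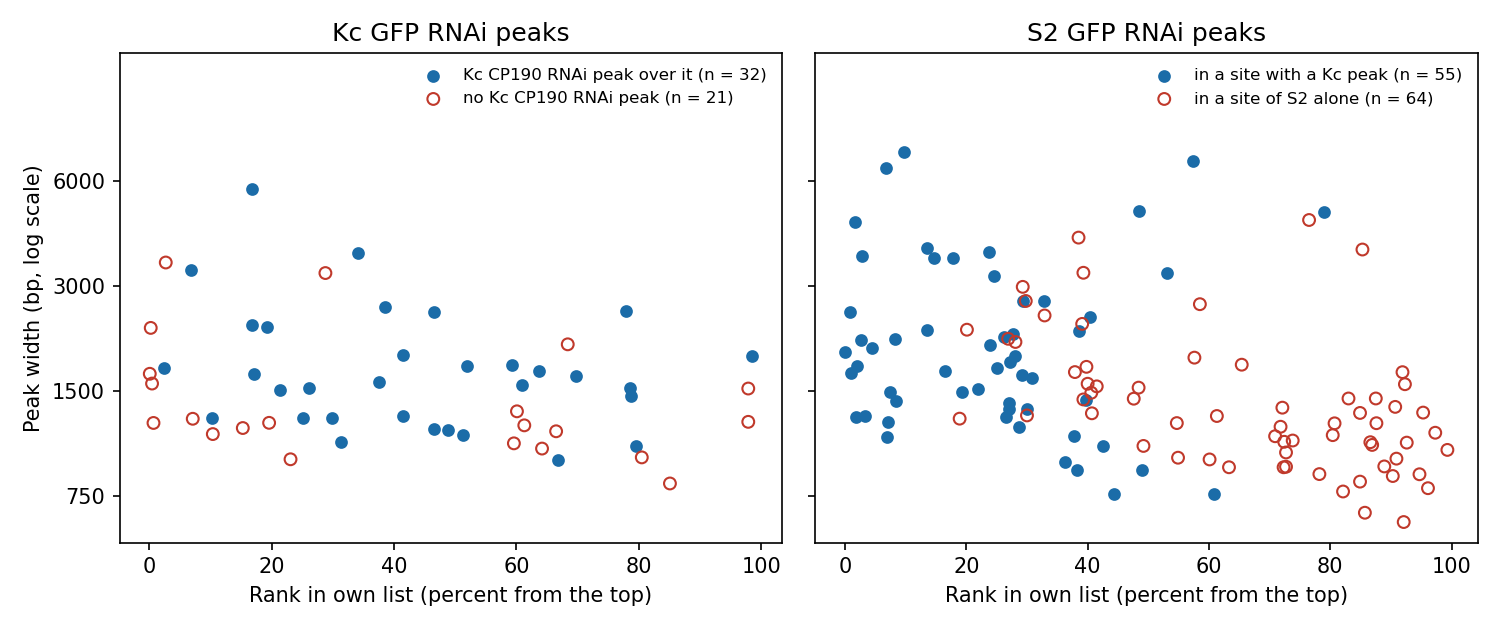
Each point is 1 chromosome 4 peak, with its rank in its own list as a percent from the top (left is strongest) and its width in bp on a log scale. Left, 53 Kc control peaks, with filled points for the 32 that overlap a CP190 RNAi peak and open points for the 21 that do not. Open points occur at both ends of the rank axis, with 6 of the 21 in the highest 10%, and tend to be narrower than filled ones. Right, 119 S2 peaks, with open points for the 64 at sites of S2 alone, none of which lies in the highest 10%.

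Where a Kc control peak met a CP190 RNAi peak one to one, the footprint was mostly similar or smaller. Among 31 such pairs on chromosome 4 the CP190 RNAi peak was narrower in 23 and wider in 7, and the median ratio of widths was 0.937 (quartiles 0.755 and 0.998). The other arms gave a median ratio of 0.942 in 2531 pairs. The CP190 RNAi peak was wider in 29.1% of those pairs and in 22.6% on chromosome 4. Centres differed by a median of 72.5 bp on chromosome 4. They lay within 250 bp of each other in 29 of the 31 pairs (93.5%), and in 86.4% of pairs on the other arms. The most reduced were chr4:1143041-1145329, where a control peak of 2289 bp met a CP190 RNAi peak of 1023 bp, and chr4:225500-228049, where the widths were 2550 and 1198 bp. These 2 were picked out after their values were seen.

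The distance from a missing peak to the nearest CP190 RNAi peak had a median of 16355 bp on chromosome 4 and of 13060 bp on the other arms. On chromosome 4, 1 of the 21 missing peaks was within 1000 bp and 14 were more than 10000 bp away, against 7.09% and 56.8% of the 1976 missing peaks elsewhere. Neighbouring CP190 RNAi peaks on chromosome 4 were themselves separated by a median of 18687 bp. In order along the chromosome, the longest stretch of consecutive missing peaks held 4, from position 424404 to 445984, and it contained 3 of the 10 strongest. The longest stretch of consecutive kept peaks held 6, from 149365 to 231520, and the next held 5, from 575008 to 718891. The chance of such stretches was not computed.

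Of the 42 CP190 RNAi peaks on chromosome 4, 9 lacked a Kc control peak (21.4%, 10.3 to 36.8%), against 29.6% of the whole list and 29.6% on the other major arms, or 27.3% at the make-up of chromosome 4. The share was within its counting error of the rest of the genome. Of these 9 peaks, 6 fell in the 5 sites shared with S2. Of all 42 CP190 RNAi peaks on the chromosome 85.7% had an S2 peak, and 44.6% of the whole list. The share among CP190 RNAi peaks without a Kc control peak elsewhere was not computed. The strongest lay at chr4:679280-682644, with a score of 307.19 and rank 283, and a second CP190 RNAi peak followed at chr4:683306-685473 under the same S2 peak of 6529 bp, which had rank 339 in its list. The other 4 sites shared with S2, after merging, were chr4:213032-215754 (CP190 RNAi rank 1403), chr4:1046755-1048246 (2477), chr4:923212-926979 (3272) and chr4:377620-379760 (3800). The 3 sites of the CP190 RNAi library alone were chr4:930330-931640 (rank 2047), chr4:816817-817817 (3239) and chr4:478630-480410 (3737). Apart from the first site, none of these peaks reached the highest 10% of the list.

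The 10 strongest CP190 RNAi peaks of the chromosome were mostly sites of all 3 libraries, 9 of the 10. The first was chr4:87231-88481, with a score of 438.07 and rank 95, next to chr4:88785-90830, with a score of 258.37 and rank 439. The Kc control peaks under them, chr4:86864-88544 and chr4:88736-91058, had ranks of 873 and 857. The others of this set were chr4:715575-718723 (rank 158), chr4:886640-888225 (335), chr4:1000152-1001255 (436), chr4:199717-200606 (501), chr4:225962-227159 (554), chr4:590447-592872 (655) and chr4:379970-381751 (694). Of the 10 strongest Kc control peaks, 2 overlapped one of these 10, at chr4:715558-718891 and chr4:999882-1001624.

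The comparison of the control libraries asks which sites are common to Kc and S2. Of the 53 Kc control peaks on chromosome 4, 49 had an S2 peak (92.5%, 81.8 to 97.9%), compared with 59.7% of the whole Kc list and 64.3% on the other major arms. Of the 42 CP190 RNAi peaks, 36 had one (85.7%, 71.5 to 94.6%), compared with 44.6% of the whole list and 48.2% on the other arms. Neither interval reaches the value of the other arms. At the score and width make-up of chromosome 4 the other arms gave 67.4% and 50.5%. S2 peaks covered more of chromosome 4 than of the other arms (18.9% against 6.16%), and the part of this denser coverage in the higher sharing was not tested. With the stricter rule that centres lie within 250 bp, 56.6% of the chromosome 4 peaks of the Kc control had an S2 peak, against 50.3% on the other arms.

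**Figure D4:**
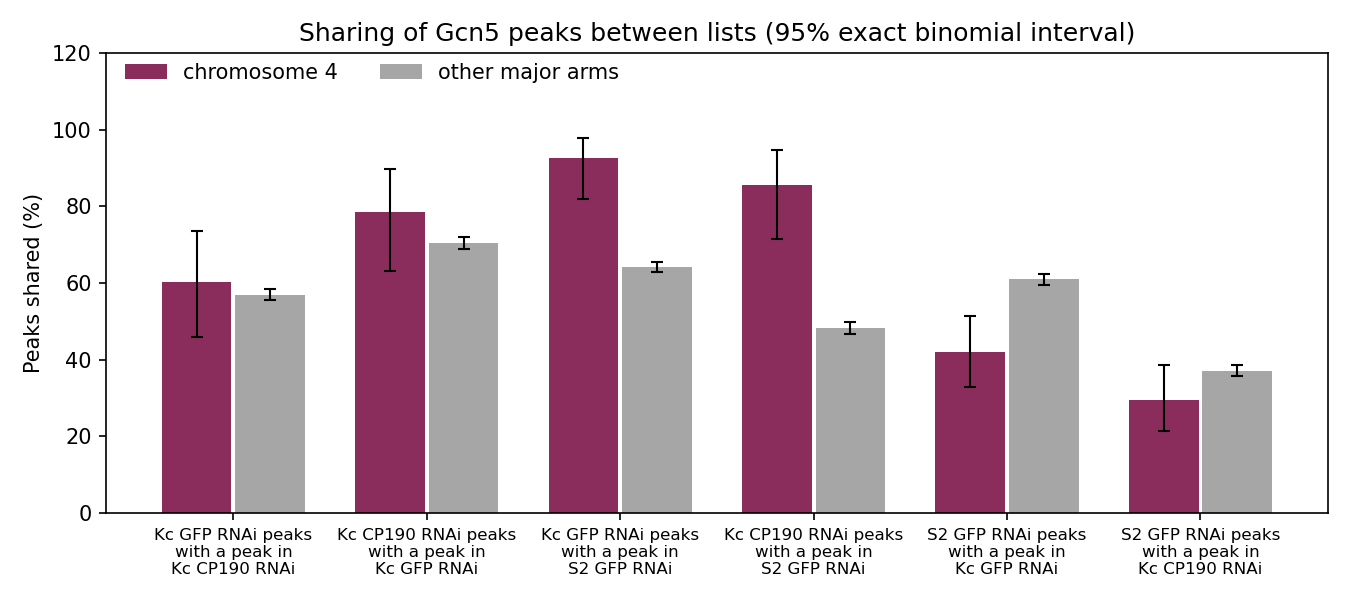
Bars give the percent of peaks of the first-named list that overlap a peak of the second by at least 1 bp, on chromosome 4 and on the other 5 major arms, with exact 95% binomial intervals. Kc peaks were more often shared with S2 on chromosome 4 (92.5% and 85.7%) than elsewhere (64.3% and 48.2%), S2 peaks less often shared with the Kc control (42.0% against 61.0%), and the Kc lists shared at similar rates (60.4% against 57.0%).

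Only 4 Kc control peaks had no S2 peak, and none of them was among the strongest. They were the neighbours chr4:978445-979605 and chr4:979688-981586, with ranks of 2491 and 2110, chr4:1014491-1015535 with rank 4054, and chr4:521663-523185 with rank 4988. The first 3 were kept after CP190 RNAi and the last was not. All 16 Kc control peaks in the highest score quintile and all 10 in the next had an S2 peak, whereas on the other arms 8.63% and 25.7% of the peaks in those quintiles had none.

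Counted from S2, the direction was the opposite. Of the 119 S2 peaks, 50 had a Kc control peak (42.0%, 33.0 to 51.4%), against 60.4% of the whole S2 list and 61.0% on the other major arms. A CP190 RNAi peak was found at 35 of them (29.4%, 21.4 to 38.5%), against 37.0% of the whole list and 37.1% on the other arms. With either Kc list 55 were shared (46.2%, 37.0 to 55.6%), against 66.0% of the whole list and 66.6% on the other arms, or 71.2% at the make-up of chromosome 4. The intervals for the Kc control and for either list lie below the other arms, and the one for the CP190 RNAi list includes their value.

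The S2 peaks that Kc shared were the strong ones. Of the 10 strongest S2 peaks of chromosome 4, all had a Kc control peak and 3 a CP190 RNAi peak. In the highest 10% of the S2 list, 16 of 17 chromosome 4 peaks had a Kc control peak. On the other arms this was so for 95.7% of 483, a similar rate. Among the strongest 53 S2 peaks of chromosome 4, as many as the Kc control has, 39 had a Kc control peak (73.6%). Among the other 66 this was so for 11 (16.7%). From the highest to the lowest score quintile, the S2 peaks without a Kc peak in either list were 1 of 24, 13 of 36, 11 of 18, 14 of 16 and 25 of 25. On the other arms these shares were 5.44%, 16.4%, 35.8%, 49.8% and 59.3%. The interval for the lowest quintile of chromosome 4 was 86.3 to 100%, and for the next 61.7 to 98.4%.

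The strongest S2 peaks also included sites that were weak in Kc. The S2 peak at chr4:1233200-1237773 had a score of 1728.3 and rank 80, and the Kc control peak under it ranked 3558 and the CP190 RNAi peak 3721. The Kc control peak at chr4:247989-249048 ranked 3037 in its list, and its S2 peak ranked 362. The latter site was picked out after its values were seen.

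Kc control peaks that went missing after CP190 RNAi were mostly S2 sites, as were those that were kept. An S2 peak was present at 20 of the 21 missing peaks (95.2%) and at 29 of the 32 kept ones (90.6%), whereas on the other arms these shares were 72.3% and 58.2%. The S2 peaks over the missing sites ranked higher, with a median of 19.6% from the top of the S2 list against 25.0% over kept sites. These values count each Kc control peak by its best S2 peak. On this count, 9 of the 20 missing and 8 of the 29 kept peaks had one in the highest 10% of the list. The S2 peak at chr4:85205-92482 overlapped 2 kept peaks and was counted for both. The other arms showed the same order, with medians of 26.5% and 41.0%. There, the best S2 peak lay in the highest 10% for 21.2% of missing and 11.1% of kept peaks with one, against 45.0% and 27.6% on chromosome 4.

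Where Kc control and S2 peaks met one to one on this chromosome, the S2 peak was more often wider than narrower. In the 45 such pairs the S2 peak was wider in 29 (64.4%) and narrower in 16. The median ratio of S2 to Kc width was 1.08 (quartiles 0.920 and 1.57). On the other arms the median was 0.973 in 2795 pairs, and the S2 peak was wider in 44.1%. The largest ratio was 5.13, at chr4:63947-64897, where the Kc control peak was 951 bp wide and the S2 peak 4882 bp. Centres lay within 250 bp in 30 of the 45 pairs (66.7%), and in 81.4% of pairs elsewhere.

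The 64 S2 peaks at sites of S2 alone were mostly low in their list. Their rank had a median of 72.2% from the top, close to the 70.8% of the 1625 such S2 peaks on the other arms, and the best was 18.9%. The strongest were chr4:1219066-1220313, with a score of 479.32 and rank 956, chr4:838248-840494, with 450.73 and rank 1019, and chr4:176033-178148, with 342.5 and rank 1361. The first lay 990 bp from a Kc control peak, the second 14331 bp and the third 21285 bp. Over the 64 peaks the distance to the nearest Kc peak had a median of 5488 bp, and 11 lay within 1000 bp. Their median width was 1272 bp, against 984 bp for S2 peaks without a Kc peak on the other arms.

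S2 peaks on chromosome 4 often stood side by side. Of the gaps between neighbouring S2 peaks, 27 were 500 bp or shorter (22.9%), against 5.19% on the other arms, where peaks are also less dense. In Kc these shares were 5.77% and 4.01% in the control and 9.76% and 4.95% after CP190 RNAi. Chained across such gaps, 46 of the 119 S2 peaks (38.7%) fell in 19 clusters, against 10.1% of S2 peaks elsewhere. The largest cluster, chr4:74927-92482, held 5 S2 peaks over 17.6 kb, of which 2 overlapped a Kc peak and 3 did not. The next widest, chr4:147509-159127, held 3 over 11.6 kb. Of the 64 S2 peaks without a Kc peak, 23 lay in a cluster and 13 of those had a Kc-shared peak in the same cluster.

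Along the chromosome, the 3 libraries had their longest empty stretch in the same place. No library had a peak from position 252873 to 328064, a stretch of 75.2 kb, which was also within the longest gap of each library (79.0 kb in the Kc control, 96.5 kb after CP190 RNAi and 75.5 kb in S2). Among the 13 windows of 100 kb, chr4:1000001-1100000 held most peaks, with 15 in S2, 5 in the Kc control and 4 after CP190 RNAi, followed by chr4:100001-200000 with 17, 3 and 2. The fewest were in chr4:700001-800000, with 5, 2 and 1, and in the incompletely spanned last window from 1200001, with 7, 2 and 1. The excess of S2 was unevenly spread. In chr4:100001-200000, 14 of the 17 S2 peaks had no Kc peak, whereas in chr4:300001-400000 and chr4:500001-600000 none of the 5 and 6 S2 peaks lacked one. Over the whole chromosome 53.8% of S2 peaks had no Kc peak, and over the list 34.0%. The window with most missing Kc control peaks was chr4:400001-500000, with 5 of 7, against 39.6% over the chromosome and 42.2% over the list. These windows were picked for their sharing after the values were seen.

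**Figure D5:**
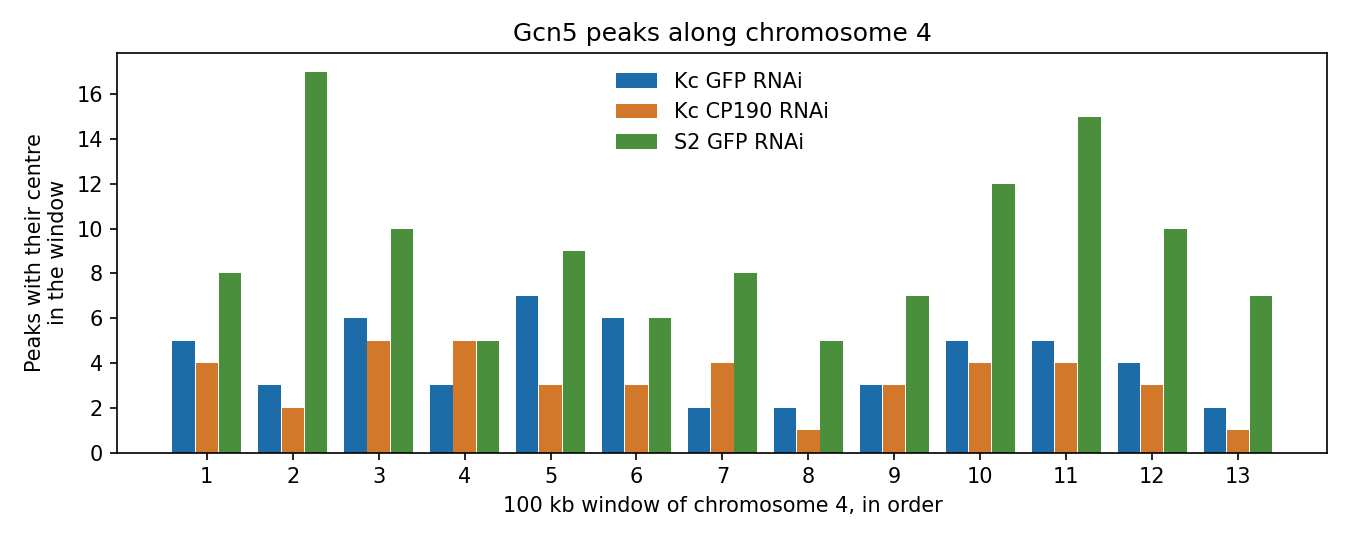
Bars give the number of peaks whose centre lies in each of 13 consecutive windows of 100 kb along chromosome 4, for the 3 libraries. S2 bars are tallest in windows 2 and 11, with 17 and 15 peaks, and equal a Kc bar in windows 4 and 6, with 5 and 6 peaks.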

How the data were processed

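The authors deposited peaks separately for each Gcn5 library, each peak with its position, a name and a score. Per the submitters' processing notes, Bowtie, MACS, bedtools and HOMER were used on build dm3. The version and role of each tool, how peaks were thresholded and whether inputs served as background were not stated. The score deposited by the authors has no stated scale and no normalization between libraries, and its lowest values were 50.08, 50.00 and 50.02. No list gives counts or coverage, so depth is unknown.

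The prefix of the Kc sequence names was removed, and positions are printed 1-based, with starts read as 0-based. Overlaps, shares and exact binomial intervals were computed with Python 3.11.15, pandas 2.3.3 and scipy 1.17.1. The overlap step was tested on simulated data. The other major arms are X, 2L, 2R, 3L and 3R. Their make-up-matched shares average 5 score quintiles by 5 width quintiles of the list, weighted by chromosome 4 peaks. Named regions were the 10 strongest and 5 widest peaks per list, the 3 strongest sites per sharing class (all where 5 or fewer), the extreme windows and the longest gaps. Members and rules were chosen with earlier results of these data known.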

Additional observations from a re-analysis of the deposited data

How the results depend on the processing

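Of 143 recomputed values, 120 stayed within counting error or 1.5 times of the reported one, 23 moved beyond it and none of the called differences changed sign. A 50% reciprocal overlap lowered the share of Kc control peaks with an S2 peak to 73.6%, of CP190 RNAi peaks with one to 59.5% and of S2 peaks with a Kc control peak to 32.8%. Centres within 250 bp gave 56.6%, 52.4% and 25.2%, and 30.3% of S2 peaks with any Kc peak. These rules also narrowed the excess of chromosome 4 over the other arms, to 15.0 and 6.28 points for Kc control peaks and to 18.3 and 18.4 points for CP190 RNAi peaks. For S2 peaks with a Kc control peak, the other arms gave 55.4% with reciprocal overlap and 47.5% by centres. Peaks within 1000 bp raised the share of S2 peaks with a Kc control peak to 52.1%, against 64.8% on the other arms. With only the S2 list cut to scores of 100 or more, 59.0% of its peaks had a Kc control peak and 65.1% any Kc peak. The other arms were not recomputed for that cut. With the cut in all lists these shares were 47.0% and 51.8%, against 60.4% and 65.7% on the other arms. Chaining across 1000 bp left 36 sites of S2 alone and 3 of CP190 RNAi and S2. A score of 100 or more in all lists left 17 sites in all 3, 40 in S2 alone, 1 in CP190 RNAi alone and 0 in the Kc control alone, and a coverage of 3.56% after CP190 RNAi. Merging across 200 bp, which removes short gaps by construction, lowered gaps of up to 500 bp to 12.5% in S2 and 2.0% in the Kc control. Otherwise the cause was not tested. The missing share differed from that of the other arms by -3.37 points (chromosome 4 minus other arms), and by 0.906 points when matched for make-up. The alternatives for CP190 RNAi peaks with an S2 peak, for widths, coverage and gaps, and for the difference between arms by overlap rule were added after the data were seen. No paired analysis was possible because each group has 1 library, and none could be left out. Depth cannot be seen in these lists.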
